A study of Mus musculus with 9 samples.

Results

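The Hox genes were taken as every non-control probe whose gene name in the files of the Fzd8-CRD arrays is Hoxa, Hoxb, Hoxc or Hoxd followed by a number. This gave 38 genes with 50 probes, out of 27845 gene names and 41174 probes on the array. Of these probes 14 belonged to the Hoxa cluster, 15 to Hoxb, 9 to Hoxc and 12 to Hoxd, and 12 genes had 2 probes each. The series holds 5 Fzd8-CRD and 4 control arrays, each a two-colour Agilent mouse array. Fzd8-CRD is the part of the receptor Frizzled 8 that binds Wnt, made as a soluble protein that holds Wnt ligands away from cells. Both groups were freshly isolated mammary tumour cells sorted for the absence of green fluorescent protein. The labels do not say what that protein marked. The source label of every array names both MMTV-Wnt-1 and MMTV-Her2 tumours, mouse models whose transgene puts the ligand Wnt-1 or the receptor Her2 under the MMTV promoter, active in the mammary gland, so the models cannot be told apart. The treatment field calls 5 arrays Fzd and 4 Control, whereas the protocol field names the inhibitor for all 9. The labels give neither what the controls received nor a dose, a time or the age of the mice.

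Hox genes encode transcription factors with a DNA-binding homeodomain. In mammals they lie in the clusters Hoxa, Hoxb, Hoxc and Hoxd, and genes at the same place in different clusters are paralogues that share a number. Low-numbered genes are used earlier and nearer the head of the embryo, high-numbered genes later and nearer the tail. The proteins bind DNA with TALE homeodomain partners of the Pbx, Meis and Pknox families. In the mouse mammary gland, Hoxa9, Hoxb9 and Hoxd9 together are required for the growth of the gland around pregnancy.

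Probes called in the comparison are shown by sequence, because pairs of probes to 1 gene gave different values. Beside them is a Hoxc12 probe that shares a stretch of 12 bases with that of Hoxd10 and was not kept for testing. Every Hox probe shared a run of 12 or more bases with another probe of the array. Positions are those of mm8, as the files of the Fzd8-CRD arrays give them, and sequences are the array probes as deposited, from 5′ to 3′. Of 50 Hox probes, 4 (8.0%) held the heptamer TCAAGAT on either strand, against 532 of 41174 array probes (1.29%). The homeobox stretches that encode the DNA recognition helix contain these letters, which are in capitals in the Hoxd10 and Hoxc12 probes shown here. The Hoxb3 probe A_51_P460643 and the Hoxa9 probe also hold the heptamer and share a run of 22 bases. Whether this affects their signals was not tested.
Hoxd10, A_52_P407049, chr2:74495062-74495121, plus strand: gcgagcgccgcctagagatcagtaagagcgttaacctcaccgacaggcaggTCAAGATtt
Hoxc12, A_51_P385684, chr15:102766422-102766481, plus strand: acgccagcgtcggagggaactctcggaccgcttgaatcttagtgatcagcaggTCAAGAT

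The called probes of the Hoxb cluster do not hold that heptamer, and their first 30 bases are given.
Hoxb2, A_51_P257789, chr11:96166636-96166695, minus strand: gtaatgtattctatggtgaggcacctatga
Hoxb2, A_52_P15300, chr11:96169898-96169957, plus strand: tggtaaaactccttccaacgaaatctcagg
Hoxb3, A_52_P312467, chr11:96163778-96163837, plus strand: tattgtattctagacaagagctgtagattt
Hoxb6, A_51_P232207, chr11:96117339-96117398, plus strand: tcgagtctcatttcgtccatgtcccccgtg
The Hoxb2 probe A_51_P257789 was the single Hoxb probe of 15 annotated on the minus strand. It lies between the genes' other probes, 2799 bases past the Hoxb3 probe A_52_P312467 and 3203 bases before the Hoxb2 probe A_52_P15300. Whether it reads a Hoxb2 transcript or one of the opposite strand was not tested, so the text keeps the gene name of the files with the probe's own name. The Hoxb3 probe A_52_P312467 is named Hoxb3 in the files of the Fzd8-CRD arrays and by a transcript cluster number in those of the controls.

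Values are log2 ratios of Cy5, the tumour cell RNA, to Cy3, a pooled reference RNA, and differences are Fzd8-CRD minus control. The labels disagree on what the reference was. The control arrays were on 1 slide and the Fzd8-CRD arrays on 4 others, scanned 367 and 378 days after the controls, so slide, scan day and treatment cannot be told apart. In Cy3 alone 57.8% of all kept probes differed between the groups by the same test, and a ratio difference carries any such difference. Control replicate 2 stood apart: its log2 ratios correlated across probes at 0.60 to 0.73 with the other 8 arrays, against 0.89 to 0.98 among the other controls and 0.88 to 0.97 among the Fzd8-CRD arrays. The median log2 ratio of 8 luminal marker genes ran from 2.43 to 4.11 on Fzd8-CRD arrays and from 3.44 to 4.12 on control arrays. That of 7 basal and myoepithelial genes ran from 4.05 to 4.93 on Fzd8-CRD arrays and from 3.66 to 4.07 on control arrays, so markers of both mammary lineages were present.

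Fewer Hox probes were detected in the tumour cell dye on Fzd8-CRD arrays. A probe counts as detected where the scanner software calls it well above background. Of 50 Hox probes 18, 18, 17, 13 and 15 were detected in the Cy5 channel of the Fzd8-CRD arrays, against 29, 24, 32 and 32 on the control arrays. These are 26% to 36% of the Hox probes on Fzd8-CRD arrays and 48% to 64% on control arrays. All probes of the array moved the same way, with 52.5% to 60.0% detected on Fzd8-CRD arrays and 63.8% to 70.8% on control arrays. The Hox share lay 20.8 to 26.5 percentage points below the share of all probes on Fzd8-CRD arrays and 6.36 to 15.8 points below it on control arrays. In Cy3, 34 to 39 Hox probes were detected on Fzd8-CRD arrays and 38 to 40 on control arrays. The share of all probes detected in Cy3 ran from 58.7% to 65.7% on Fzd8-CRD arrays and from 71.8% to 74.9% on control arrays. Brightness thus moved with the groups in both dyes, and its part in the Hox counts was not tested.

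Across the clusters, 11 Hox probes were detected in Cy5 on all 9 arrays and 15 on none. Another 15 (30%) were detected on control arrays only and 0 on Fzd8-CRD arrays only. Over the whole array 12.4% of probes were detected on control arrays only and 1.48% on Fzd8-CRD arrays only. The Hox probes were dimmer, with a median of their mean log2 Cy5 of 6.62, against 7.02 over all probes. The part of this level in the Hox share was not tested. Without control replicate 2, an alternative chosen after seeing the data, 14 Hox probes were of the first kind and 0 of the second. The posterior genes, with paralogue numbers 9 to 13, had 3, 4, 3, 1 and 2 of 20 probes detected on Fzd8-CRD arrays and 11, 8, 10 and 11 on control arrays. The central genes, numbers 4 to 8, had 9, 9, 8, 7 and 7 of 18 probes detected on Fzd8-CRD arrays and 11, 13, 14 and 13 on control arrays. The groups were apart for both classes. The anterior genes, numbers 1 to 3, had 6, 5, 6, 5 and 6 of 12 probes on Fzd8-CRD arrays and 7, 3, 8 and 8 on control arrays, and control replicate 2 lay below all Fzd8-CRD arrays. By cluster, the 14 Hoxa probes gave 3 on every Fzd8-CRD array and 6, 6, 9 and 8 on control arrays. The 12 Hoxd probes gave 3, 2, 3, 2 and 4 on Fzd8-CRD arrays and 7, 6, 7 and 7 on control arrays. The Hoxb and Hoxc counts met or overlapped between the groups. In tumour cells of mixed origin, fewer cells of a type and less RNA per cell cannot be told apart. Neither can be told apart from slide and scan day, which differed between the groups.

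**Figure D1:**
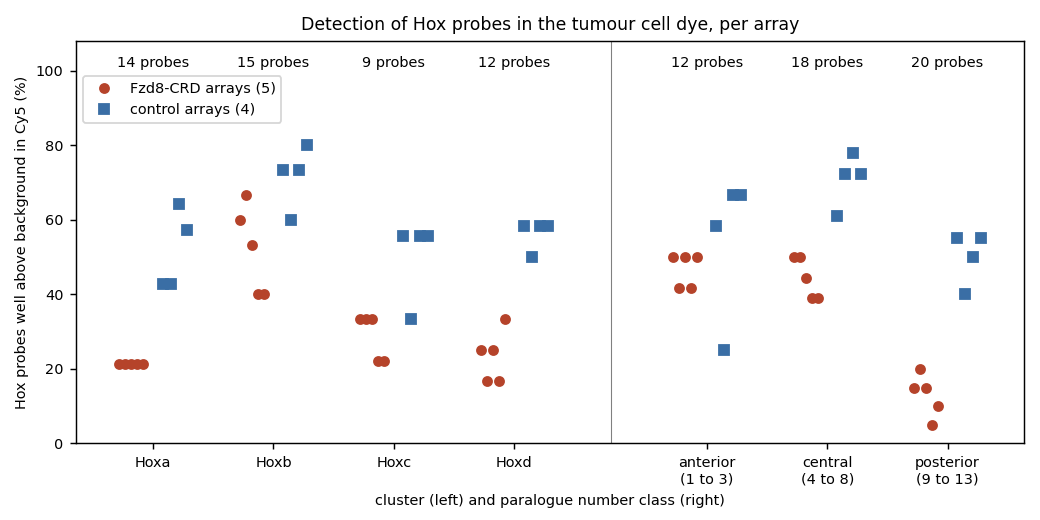
Share of Hox probes called well above background in Cy5 on each array, by cluster (left) and by paralogue number class (right), with 1 point per array, circles for 5 Fzd8-CRD arrays and squares for 4 control arrays. Among the paralogue number classes, posterior probes lie lowest on Fzd8-CRD arrays, at 1 to 4 of 20, against 8 to 11 of 20 on control arrays.

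Ratios were tested for the 24 Hox probes, of 19 genes, that were detected in Cy5 on at least 4 arrays. They comprised 4 of 14 Hoxa, 10 of 15 Hoxb, 3 of 9 Hoxc and 7 of 12 Hoxd probes. Of them, 4 passed this filter through control arrays alone: those of Hoxa6, Hoxd10 and Hoxd12 and the Hoxd9 probe A_51_P430728. In the limma fit over all kept probes, with Benjamini-Hochberg adjustment and a threshold of 0.05, 3 of the 24 Hox probes were higher and 2 lower in Fzd8-CRD cells. Over all 26835 kept probes 6.76% were higher and 7.86% lower, 14.6% together, so the number of Hox probes called was near that of the array at large. Among the probes that were also detected in Cy5 on at least 1 array of each group, a restriction chosen after seeing the data, 3 of 20 Hox probes were higher and 1 lower, against 7.11% and 8.06% of 25333 probes. The groups did not overlap for 5 of the 24, the 5 called probes, against 19.1% of all kept probes. The median log2 difference was -0.095 over the Hox probes and -0.064 over all kept probes. The 3 higher probes were named for the neighbouring genes Hoxb2 and Hoxb3, and the 2 lower ones for Hoxb6 and Hoxd10. Hoxd10 was kept through control arrays alone, which favours a lower value in Fzd8-CRD cells, so its call is given as a description.

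**Figure D2:**
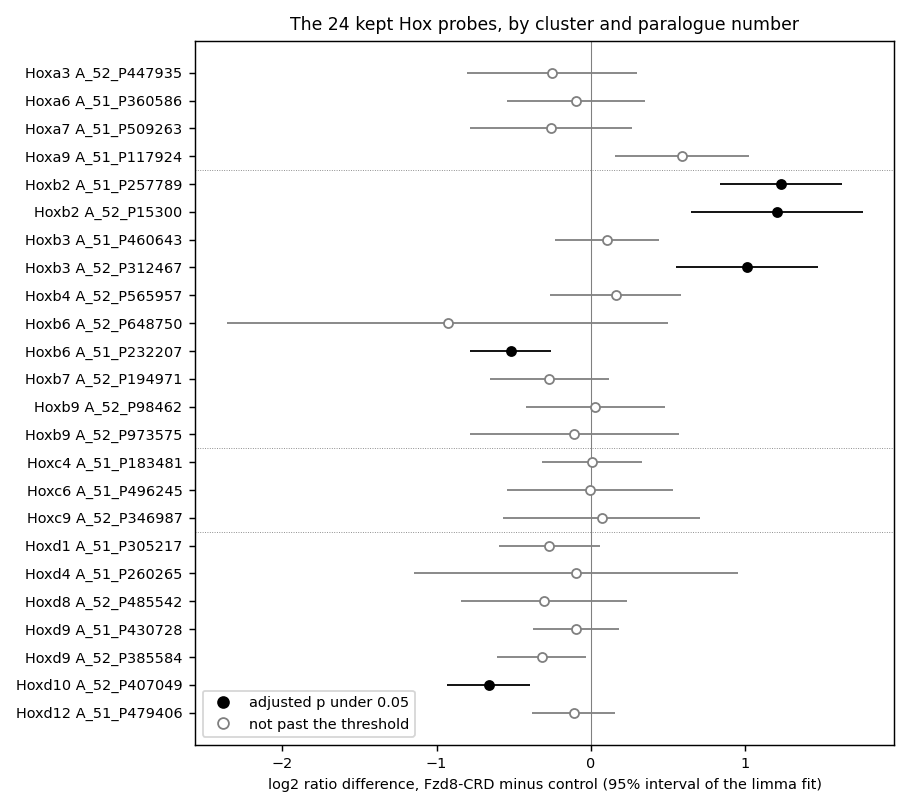
Difference in log2 Cy5/Cy3 ratio, Fzd8-CRD minus control, for the 24 kept Hox probes, ordered by cluster and paralogue number, with 95% intervals of the limma fit. Filled points passed the threshold: both Hoxb2 probes and 1 Hoxb3 probe lie right of 0, 1 Hoxb6 probe and the Hoxd10 probe left of it.

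Hoxb2, which patterns the hindbrain and its facial motor neurons in the embryo, was higher in Fzd8-CRD cells on its plus-strand probe. The minus-strand probe named Hoxb2, whose target transcript was not tested, was higher too. On the minus-strand probe A_51_P257789 the log2 ratios were 1.07, 1.34, 0.71, 0.59 and 0.79 on Fzd8-CRD arrays, against -0.43, -0.60, -0.16 and -0.15 on control arrays. All 5 Fzd8-CRD arrays lay above 0 and all 4 controls below it. The difference was 1.23 (SE 0.18, adjusted p = 0.00521), with a 95% interval of 0.84 to 1.63. On the plus-strand probe A_52_P15300, Hoxb2 had log2 ratios of 1.22, 0.58, 0.52, -0.23 and 0.89 on Fzd8-CRD arrays, against -0.57, -0.68, -0.60 and -0.60 on control arrays. Here Fzd8-CRD replicate 4 lay nearest to the controls and still above them, while the controls spread little. The difference was 1.21 (SE 0.25, adjusted p = 0.0147), with a 95% interval of 0.65 to 1.76. On both probes the change lay in the tumour cell dye: Cy5 alone differed by 1.17 (adjusted p = 0.00184) on the first and by 1.18 (adjusted p = 0.0215) on the second. Cy3 alone differed by -0.014 (adjusted p = 0.823) and -0.14 (adjusted p = 0.00953). The minus-strand probe was detected on 3 of 4 control arrays, the plus-strand probe on all 9.

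Hoxb3, a neighbour of Hoxb2 that acts in the hindbrain and in blood and vessel cells, gave an answer that depended on the probe. On A_52_P312467 the log2 ratios of Hoxb3 were 0.50, 0.32, -0.18, -0.22 and 0.33 on Fzd8-CRD arrays, against -1.24, -0.92, -0.85 and -0.44 on control arrays. The groups were apart, by the smallest margin between Fzd8-CRD replicate 4 and control replicate 4. The difference was 1.01 (SE 0.21, adjusted p = 0.0140), with 0.58 in Cy5 alone (adjusted p = 0.0660) and -0.29 in Cy3 alone (adjusted p = 0.000469), so Cy5 alone did not pass. The homeobox probe A_51_P460643, which lies 1829 bases before it, had log2 ratios of -0.56, -0.71, -0.48, -0.37 and 0.03 on Fzd8-CRD arrays and -0.51, -0.47, -0.55 and -0.57 on control arrays. These groups overlapped, and the difference was 0.10 (SE 0.15, adjusted p = 0.656), with a 95% interval of -0.23 to 0.44. Its Cy5 signal alone was higher by 0.49 (adjusted p = 0.0360) and its Cy3 signal by 0.71 (adjusted p = 3.47e-07). In Cy5 alone both Hoxb3 probes had positive differences and 1 passed.

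**Figure D3:**
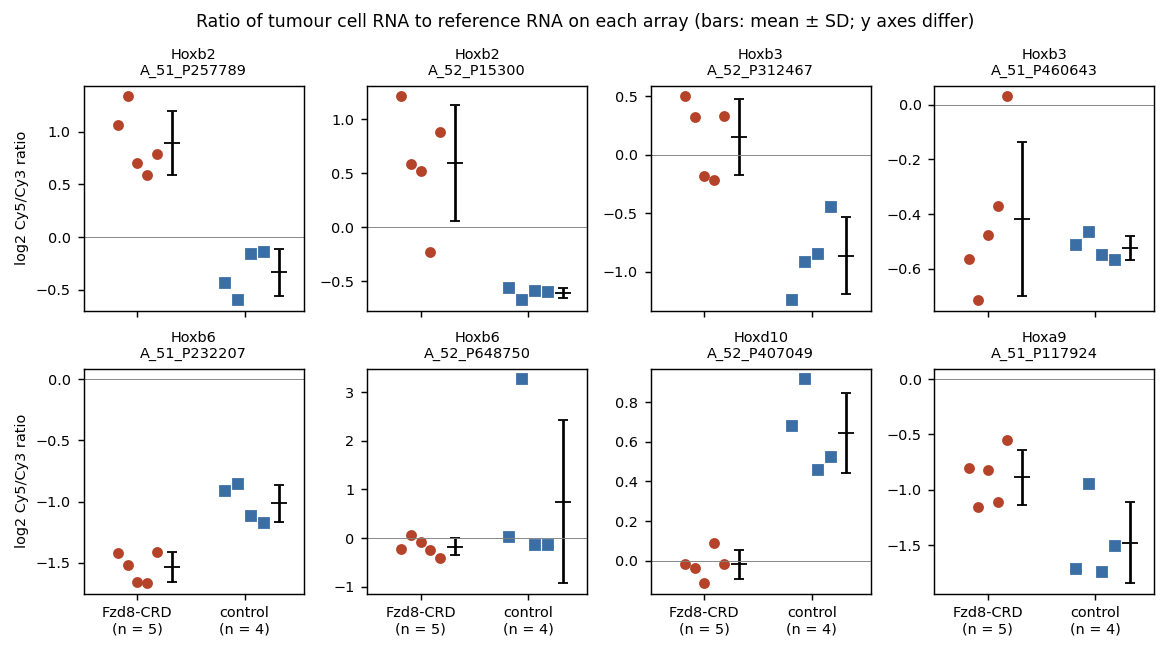
Log2 Cy5/Cy3 ratio on each array for 8 Hox probes, circles for 5 Fzd8-CRD arrays and squares for 4 control arrays, with the mean ± SD as bars beside them. The groups are apart for both Hoxb2 probes, Hoxb3 A_52_P312467, Hoxb6 A_51_P232207 and Hoxd10, and 1 control array stands at 3.27 on the second Hoxb6 probe.

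Farther along the Hoxb cluster the direction was lower or no call was made. Hoxb6, a central gene used in the trunk and in blood progenitors, had log2 ratios on probe A_51_P232207 of -1.42, -1.52, -1.65, -1.67 and -1.41 on Fzd8-CRD arrays, against -0.91, -0.86, -1.12 and -1.17 on control arrays. Every Fzd8-CRD array lay below every control. The difference was -0.52 (SE 0.12, adjusted p = 0.0194), beside -0.32 in Cy5 alone (adjusted p = 0.106) and 0.35 in Cy3 alone (adjusted p = 0.00015). The other Hoxb6 probe, A_52_P648750, had log2 ratios of -0.22, 0.06, -0.08, -0.24 and -0.41 on Fzd8-CRD arrays and 0.02, 3.27, -0.15 and -0.14 on control arrays. Control replicate 2 alone made its mean difference of -0.93 (SE 0.64, adjusted p = 0.339), which was -0.088 without that array. On that array its log2 Cy5 was 11.67, against 7.38 to 7.67 on the other controls. The probes of Hoxb4, a factor of blood stem cells, and Hoxb7, often raised in human breast tumours, differed by 0.16 (SE 0.19, adjusted p = 0.578) and -0.27 (SE 0.17, adjusted p = 0.307). In Cy5 alone Hoxb7 differed by -0.63 (adjusted p = 0.0243).

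Hoxd10 was the other probe called lower. Hoxd10 is a posterior gene with roles in limb and spinal cord motor neurons, and it keeps cells quiescent in studies of breast epithelium and vessels. Its log2 ratios were -0.02, -0.03, -0.11, 0.09 and -0.01 on Fzd8-CRD arrays, against 0.68, 0.92, 0.46 and 0.53 on control arrays. The groups were apart, and the difference was -0.66 (SE 0.12, adjusted p = 0.00987), a description because the probe was kept through control arrays alone. Hoxd10 was not well above background in Cy5 on any Fzd8-CRD array and was on all 4 controls. Its Fzd8-CRD ratios thus rest on signals near background. Log2 Cy5 of Hoxd10, quantile-normalized within the dye, averaged 6.53 on Fzd8-CRD arrays and 6.91 on control arrays. These means were 1.31-fold apart, with control cells higher, and 1.22-fold apart without control replicate 2. Such folds between group means are the lower of those under 2 normalizations, loess with quantiles and Cy5 quantiles alone. A Fzd8-CRD signal below the lowest detected signal of its array was raised to it. The folds leave out the spread between arrays, so they are no lower limits, and they are open to dye bias. The Cy3 signal of Hoxd10 was detected on 2 of 5 Fzd8-CRD arrays and all 4 controls. Cy5 alone differed by -0.39 (adjusted p = 0.0763) and Cy3 alone by 0.11 (adjusted p = 0.0506).

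The other probes detected on all controls and no Fzd8-CRD array were not called. Hoxa6, a central gene of the trunk, had log2 ratios of 0.01, -0.14, -0.11, -0.13 and 0.03 on Fzd8-CRD arrays and -0.26, 0.69, -0.37 and 0.04 on control arrays. Its mean Cy5 signal was 1.13-fold higher in controls (ratio difference -0.094, adjusted p = 0.770). Control replicate 2 held most of that fold: its log2 Cy5 of Hoxa6 was 7.15, against 6.44 to 6.83 on the other controls. Without it the fold was 1.02 and the ratio difference 0.13 (adjusted p = 0.487). Hoxd12, a gene of the distal limb, had log2 ratios of 0.28, -0.14, -0.11, 0.15 and 0.05 on Fzd8-CRD arrays and 0.27, 0.18, 0.05 and 0.13 on control arrays. Its mean Cy5 signal was 1.26-fold higher in controls (ratio difference -0.11, adjusted p = 0.551), and its Cy3 signal differed by -0.33 (adjusted p = 0.000572). That Cy3 signal was detected on 0 of 5 Fzd8-CRD arrays and all 4 controls, so both dyes are bounds on Fzd8-CRD arrays. For both genes the ratios of the groups overlapped.

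Among the paralogues with number 9 are Hoxa9, Hoxb9 and Hoxd9, which are required together in the mammary gland. In the fit reported here, the probes with number 9 did not move together. Hoxa9, also a leukaemia gene, had log2 ratios of -0.81, -1.15, -0.82, -1.11 and -0.55 on Fzd8-CRD arrays, against -1.71, -0.95, -1.74 and -1.51 on control arrays. Control replicate 2 lay among the Fzd8-CRD arrays and the other controls below them. The difference of 0.59 (SE 0.19, adjusted p = 0.0698) did not pass, although its 95% interval ran from 0.16 to 1.03, and without control replicate 2 it was 0.77 and passed (adjusted p = 0.0150). The Hoxb9 probes differed by 0.030 (SE 0.20, adjusted p = 0.934) and -0.11 (SE 0.30, adjusted p = 0.831). Hoxc9 had log2 ratios of -3.88, -3.84, -3.67, -3.99 and -3.33 on Fzd8-CRD arrays and -4.13, -2.82, -4.11 and -4.20 on control arrays. Control replicate 2 lay above all other arrays. Hoxc9 differed by 0.072 (SE 0.29, adjusted p = 0.884), with a 95% interval of -0.57 to 0.71. Hoxd9 had log2 ratios of -0.53, -0.66, -0.42, -0.47 and -0.16 on Fzd8-CRD arrays and -0.16, -0.26, 0.07 and -0.16 on control arrays with probe A_52_P385584, a difference of -0.32 (SE 0.13, adjusted p = 0.119). The groups overlapped through Fzd8-CRD replicate 5 and control replicate 2. Its other probe, A_51_P430728, had -0.24, -0.29, -0.17, -0.36 and -0.08 on Fzd8-CRD arrays and -0.05, -0.06, 0.01 and -0.43 on control arrays. That difference was -0.096 (SE 0.12, adjusted p = 0.615), and mean Cy5 was 1.03-fold higher in controls. With the scanner's ratio, Hoxb9 A_52_P98462 and A_52_P973575 differed by -2.23 and -1.55, and Hoxc9 by -1.73. Hoxd9 A_52_P385584 then differed by -2.08, and A_51_P430728, kept through control arrays alone, by -1.59. These differences passed the threshold, and the deposited table gave the same rounded values. Hoxa9 stayed above 0 under every alternative.

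The remaining kept probes had differences that did not pass and groups that overlapped. Hoxa7, a central trunk gene, had log2 ratios of -1.76, -1.75, -1.75, -2.01 and -1.79 on Fzd8-CRD arrays and -2.02, -0.74, -1.82 and -1.64 on control arrays. Hoxc4, a central gene also used in blood cells, had log2 ratios of 0.36, 0.77, 0.30, 0.27 and 0.09 on Fzd8-CRD arrays and 0.31, 0.21, 0.41 and 0.47 on control arrays. Hoxa7 differed by -0.26 (SE 0.23, adjusted p = 0.468) and Hoxc4 by 0.0088 (SE 0.15, adjusted p = 0.973), with a 95% interval of -0.32 to 0.33 for Hoxc4. Hoxd4, a hindbrain gene, had 0.95, 1.30, 0.42, 0.54 and 1.58 on Fzd8-CRD arrays and 0.49, -0.20, 1.76 and 2.15 on control arrays. Its controls spanned more than the whole Fzd8-CRD group, and its difference of -0.093 had a 95% interval of -1.14 to 0.96 (adjusted p = 0.909). Hoxa3, Hoxc6, Hoxd1 and Hoxd8 differed by -0.30 to -0.0065. Hoxd1 was not well above background in Cy3 on any array, so its ratio rests on 1 dye.

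Control replicate 2 was the highest of the 9 arrays on 12 of the 24 kept Hox probes, against 25.2% of all kept probes. It was above the other controls on 14 of the 24. The ratios of 8 kept Hox probes were negative on all 9 arrays. Without control replicate 2, 4 probes were higher and 2 lower, the added one being Hoxa9, and the Hox median difference was 0.021.

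Each dye was also tested alone, with another normalization, so the differences of both dyes do not add up to that of the ratio. In Cy5 alone 3 of 24 were higher and 2 lower, against 17.2% of all kept probes in either direction. In Cy3 alone 5 were higher and 8 lower, against 57.8% of all kept probes. The higher Cy5 probes were both Hoxb2 probes and the Hoxb3 homeobox probe. The lower ones were Hoxb7 (-0.63) and the Hoxb9 probe A_52_P98462 (-0.66, adjusted p = 0.0122), which was detected on 1 of 5 Fzd8-CRD arrays and all 4 controls. The Hoxb6 and Hoxd10 probes had Cy5 differences below 0 that did not pass.

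**Figure D4:**
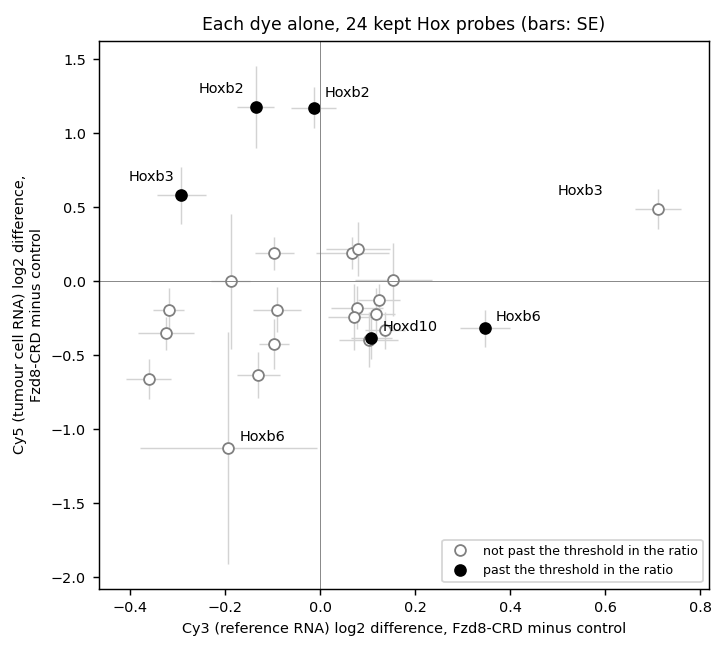
Difference, Fzd8-CRD minus control, in normalized log2 Cy5 (tumour cells, vertical) and in normalized log2 Cy3 (reference, horizontal) for the 24 kept Hox probes, with SE bars. Both Hoxb2 probes lie high in Cy5 and near 0 in Cy3, while the Hoxb3 homeobox probe lies at 0.49 in Cy5 and 0.71 in Cy3.

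Of the partners of Hox proteins, 2 rose, where 6.76% of all kept probes were higher and 7.86% lower. All 9 TALE cofactor genes were kept, and Meis1 and Meis3, which bind DNA with Hox proteins, rose by 0.52 (SE 0.13, adjusted p = 0.0326) and 0.43 (SE 0.13, adjusted p = 0.0489). The list's median difference was 0.32. Retinoic acid, a vitamin A product that switches on anterior Hox genes in embryos, was followed through 15 kept genes of its receptors, enzymes and binding proteins, of which 3 fell and 0 rose (median difference -0.14). The differences were, for Aldh1a1, which makes retinoic acid, -2.60 (SE 0.45, adjusted p = 0.00902), for Crabp2, which carries it, -1.16 (SE 0.18, adjusted p = 0.00618), and for Rarb, a receptor that it induces, -0.86 (SE 0.19, adjusted p = 0.0195). Among 7 trithorax genes, whose products keep Hox genes active, Kmt2a rose by 0.80 (SE 0.23, adjusted p = 0.0481) and 0 fell. Of 3 kept cluster neighbours and ParaHox genes 0 passed. Of 11 other homeobox and T-box genes of the mammary bud and its mesenchyme, Tbx3 (1.12, SE 0.28, adjusted p = 0.0287) and Msx1 (0.53, SE 0.14, adjusted p = 0.0360) rose and Msx2 (-1.77, SE 0.43, adjusted p = 0.0251) fell. Gmnn, which encodes geminin, a partner of some Hox proteins and a replication inhibitor, fell by 1.22 (SE 0.27, adjusted p = 0.0195).

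Markers of other cell types moved with the groups, beside the same 6.76% higher and 7.86% lower of all kept probes, and their part in the Hox results was not tested. Of 10 endothelial genes 9 fell and 0 rose, with the smallest p for Sox17 (-2.25), Pecam1 (-1.24) and Erg (-2.24), and the per-array median log2 ratio of the list ran from 0.29 to 1.80 on Fzd8-CRD arrays and from 2.69 to 3.08 on control arrays. All 3 kept erythroid genes fell, with medians of 0.15 to 1.58 on Fzd8-CRD arrays and 3.53 to 7.30 on control arrays. Of 10 fibroblast genes 2 fell, Thy1 (-1.95) and Fap (-0.91), with medians of -2.08 to -0.69 on Fzd8-CRD arrays and -1.16 to 0.83 on control arrays. Of 12 leukocyte genes 0 passed, with medians of -0.92 to -0.69 on Fzd8-CRD arrays and -0.73 to 0.44 on control arrays, the highest being that of control replicate 2. Of 2 kept adipocyte genes Fabp4 fell (-1.32), with medians of 0.91 to 1.27 on Fzd8-CRD arrays and 1.65 to 2.16 on control arrays. Of 7 basal and myoepithelial genes 3 rose, Krt5 (0.80), Tagln (1.63) and Cnn1 (1.03), and of 8 luminal genes 0 passed.

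The 5 called Hox probes kept their direction under every other way of processing that gave them a value. That of Hoxd10, kept through control arrays alone, is given as a description. The smallest and largest differences were 1.10 and 3.27 for Hoxb2 A_51_P257789, 1.05 and 1.60 for Hoxb2 A_52_P15300, and 0.58 and 2.10 for Hoxb3 A_52_P312467. They were -1.31 and -0.32 for Hoxb6 A_51_P232207 and -2.66 and -0.39 for Hoxd10. Counts of called Hox probes moved more. Without the filter on dim probes 6 were higher (6.11% of all probes), with Hoxa2 and Hoxc12 among those added. With the scanner software's own ratio 8 were lower (6.23% of kept probes), and likewise 8 with the deposited table (5.95%). Array weights gave 5 higher and 6 lower (41.2% of kept probes called), and averaging the closest pair of arrays in each group gave 1 higher and 0 lower (1.96% called). The minus-strand Hoxb2 probe passed under all 22 alternatives that gave it a value, with adjusted p from 0.000179 to 0.0371.

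**Figure D5:**
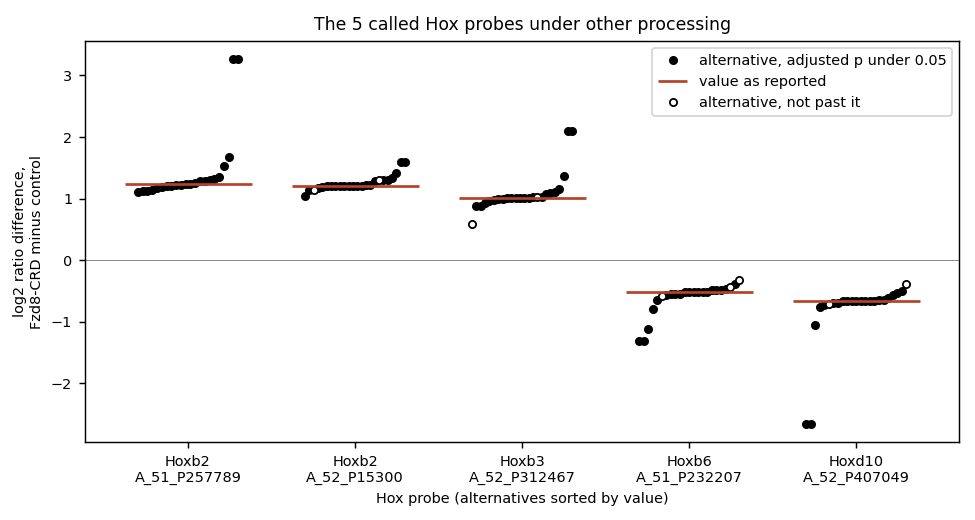
Difference in log2 ratio, Fzd8-CRD minus control, of the 5 called Hox probes as reported (horizontal line) and under each alternative (points, sorted by value, filled where the adjusted p was under 0.05). The 3 higher probes stay above 0 and the 2 lower ones below it, and the outermost points come from the scanner software's own ratio.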

How the data were processed

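Each array carried Cy5-labelled RNA of sorted tumour cells and a Cy3-labelled pooled reference, per the labels. For both dyes the mean intensity of each spot and the median intensity of its surroundings came, per the file headers, from version 9.5.3.1 of Agilent Feature Extraction. The log10 ratio in these deposited files is that software's own background-corrected, dye-normalized value. The authors' series table gives a linear ratio per probe and array, not centred (median 0.835 to 0.956); its log2 values correlated with the scanner's at 0.999995 or more.

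Background was corrected with normexp (offset 50) in limma 3.58.1 under R 4.3.3 (data.table package, version 1.17.8) and ratios normalized by loess, control spots having no weight. Outlier-marked spots were left out (1229 over all arrays) and spots of a probe averaged. A probe was kept where Cy5 was well above background on at least 4 arrays (26835 probes), counting probes with at least 0.5 of their spots marked so. Groups were compared with limma's lmFit and eBayes, Benjamini-Hochberg adjustment over all kept probes and a threshold of 0.05. A separate fit per dye used quantile-normalized log2 intensity. The offset understates differences of dim probes. The procedure was tested on simulated data.

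Values on every array are given for called Hox probes, the 2 largest differences and the brightest probe of each cluster, probes of the same genes, and probes detected on all arrays of one group and none of the other. Of other lists, up to 4 genes past the threshold are named, by smallest p. The members and lists were chosen with earlier results of these data known. Each gene of a list stands for its brightest probe. Arrays were grouped by the treatment label; the series' design text calls them biological replicates, replicate numbers follow accession order, and the number of arrays limits the precision. Alternatives covered background correction, the scanner's ratio, the series table, centring, scaling, single dyes, filters on dim probes, 1 probe per gene, array weights, slide and scan day blocks, averaging of the closest arrays, trended moderation and leaving out each array. Some items are not reported here.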

Additional observations from a re-analysis of the deposited data

Results flagged for a closer look

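Of 50 sets of values tested for a sample far from the others of its group, 6 held one, where chance gives about 1 in 20. Control replicate 2 accounted for 3, each time as the highest control. Its log2 ratio was 3.27 on the Hoxb6 probe A_52_P648750, against -0.15 to 0.018 on the other controls. It was -2.82 for Hoxc9, against -4.20 to -4.11, and -0.36 on the Hoxb9 probe A_52_P973575, against -1.86 to -1.73. Control replicate 4 was low on the Hoxd9 probe A_51_P430728, at -0.43 against -0.063 to 0.0092. Among the Fzd8-CRD arrays, replicate 4 was low for Hoxa7, at -2.01 against -1.79 to -1.75, and replicate 5 high for Hoxd8, at -0.096 against -0.79 to -0.61.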

How the results depend on the processing

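No paired analysis was possible because replicate numbers only follow accession order and pair no arrays. Higher Hox probes numbered 6 without the filter on dim probes, with Hoxa2 (0.43) and Hoxc12 (0.32) among those added, 5 with array weights and 1 with the closest arrays averaged. Lower ones numbered 8 with the scanner's ratio and with the deposited table, 6 with array weights, 1 each with probes detected in both groups, median centring, detection on all 9 arrays and 1 probe per gene, and 0 with the closest arrays averaged. With that averaging, limma gave an adjusted p of 0.0714 for Hoxb2 A_52_P15300, 0.0613 for Hoxb3 A_52_P312467, 0.0702 for Hoxb6 A_51_P232207 and 0.0548 for Hoxd10. The Hox median difference was -0.21 without background correction, -0.60 with the scanner's ratio, -0.70 with the deposited table, -0.19 in Cy5 alone, 0.033 without the filter, 0.0024 with array weights and 0.021 without control replicate 2. Leaving out each array in turn gave 3 to 4 higher, 2 lower (2 in every case), a median of -0.17 to 0.021 and a difference in detected Hox probes of -14.8 to -12.1. The detection difference was -13.05 in Cy5 and -3 in Cy3. Hoxc9 turned to -1.73 with the scanner's ratio (adjusted p = 0.0469) and -1.73 with the deposited table (adjusted p = 0.0477); the cause was not tested. The Hoxb9 probe A_52_P98462, at 0.030 as reported, turned to -2.23 with the scanner's ratio (limma adjusted p = 0.00886). It was also -2.23 with the deposited table (adjusted p = 0.00917) and -0.66 in Cy5 alone (adjusted p = 0.0122). With array weights it stayed positive, at 0.34 (adjusted p = 0.0426). A sign change of an uncalled probe is listed here only where the alternative passed. Hoxb3 A_52_P312467, Hoxb6 A_51_P232207 and Hoxd10 did not pass with Cy5 alone, Hoxb6 with median centring (-0.43) or Hoxb2 A_52_P15300 with scaling between arrays (1.30, adjusted p = 0.0512). Hoxa9 passed with array weights (0.82), slide (0.59) and scan day (0.61) as blocks. Hoxd9 A_52_P385584 passed under 7 of 23 alternatives, and the consensus correlations of slide and scan day were -0.16 and -0.12. The number of arrays and signals near background limit what can be detected for the 26 Hox probes that were not kept.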
